A study of Mus musculus with 125 samples.

Results

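The members described here are the 16 consensus ATAC-seq peaks, of 256400 in the series, whose centres lie on chromosome 3 between 135580000 and 135695000 (GRCm38), a window that holds the mouse gene Nfkb1 and a stretch beyond each end of it. The members were chosen by their position around 1 peak, Interval_163061, called the lead peak below, which had been selected on its higher accessibility in co-cultured cells of lines A and B at the second time point. Values from A and B are therefore given as descriptions with no test, and tests were run in lines C and D only. The 4 cell lines are mouse B-ALL cells (acute lymphoblastic leukaemia of the B lineage) from bone marrow of wild-type C57BL/6 mice, transformed by a retrovirus that carries the BCR/ABLp185 fusion kinase and labelled with DNA barcodes and GFP. Lines A and B share a parental line, as do lines C and D, so the members of a pair are not independent of each other. Cells were grown alone (B-ALL alone, time point 1, TP1) or with wild-type natural killer (NK) cells that had been activated with IL-2 (B-ALL + NK, TP1 or time point 2, TP2), and GFP+ cells were sorted. By the methods text IL-2 was present in all conditions, and harvested tumour cells were put into co-culture with NK cells again. TP1 was day 4 and TP2 day 10 by the labels, and days 6 and 16 in experiment 9.7. For TP2 the methods text states later days than day 10. Cells alone were sampled at TP1 only, so at TP2 longer culture and NK exposure cannot be told apart. There were 125 libraries in 42 groups, which came from 14 pairings of a line with an experiment (combinations below), 6 of them in A and B and 8 in C and D. Total counts in peaks ranged from 3083547 to 13580746 per library. Replicates 2 and 3 of line C differed from each other by no more than counting noise in 2 groups, and each such pair entered as 1 sample, which left 54 samples in A and B and 69 in C and D. The labels do not tie replicates to separate cultures, so p-values rest on the spread between samples, part of which may be technical.

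Nfkb1 encodes p105, the precursor that is processed to p50, a DNA-binding subunit of NF-κB. In resting cells NF-κB dimers are held in the cytoplasm by inhibitor proteins, and kinases that act on these inhibitors release the dimers to the nucleus, where they switch on genes of inflammation and survival. Nfkb1 is itself a known NF-κB target gene. NK cells secrete interferon-γ (IFN-γ), whose target genes carry GAS elements and, for IRF proteins, interferon-stimulated response elements (ISREs). ATAC-seq measures where the transposase Tn5 can insert adapters, and thus which DNA is open. It does not measure transcription of the gene or activity of its product.

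Nfkb1 lies on the minus strand and its main transcript starts at position 135691546. The lead peak (chr3:135665200-135666941, 1742 bp) lies in intron 3 of this transcript, 25.48 kb downstream of the main start, and its centre is 1728 bp downstream of the start of a shorter protein-coding transcript. The promoter peak, Interval_163065 (chr3:135690319-135692087, 1769 bp), covers exon 1, with its centre 343 bp from the main start. The other members lie in introns or over internal exons, except Interval_163050, which lies beyond the 3′ end of the gene, and 1 of them, Interval_163060, also covers the unspliced Gm43430 transcript. The sequence most often open in the lead peak is shown first. Broad peaks, the regions that MACS2 called in each library alone, overlapped the lead peak in 110 of 125 libraries, and 109 of these covered the same 79 bp (chr3:135665978-135666056). The 300 bases around that stretch are given from the plus strand of GRCm38, all in lower case because none of the 3 motifs searched occurs in them as an exact match.

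Lead peak core, chr3:135665868-135666167: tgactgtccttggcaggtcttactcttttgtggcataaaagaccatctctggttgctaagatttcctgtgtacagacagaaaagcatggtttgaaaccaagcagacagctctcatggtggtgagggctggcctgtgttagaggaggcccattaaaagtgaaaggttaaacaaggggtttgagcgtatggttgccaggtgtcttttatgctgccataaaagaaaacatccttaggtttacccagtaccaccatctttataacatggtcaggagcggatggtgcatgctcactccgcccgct

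The motifs were searched on both strands of every member, and were the ISRE (GAAA, any 2 bases, GAAA), GAS (TTCNNNGAA) and the κB element by its consensus. Only exact matches were counted. The core above holds the letters aaaagtgaaa, which differ from the ISRE in the first base only and were not counted. An ISRE match was found in 4 of the 16 members, GAS in 6 and κB in 4. The lead peak held 1 ISRE match, on the minus strand at chr3:135666307-135666316, 251 bp beyond the end of the shared stretch, and neither GAS nor κB letters. In windows of 1742 bp around 55376 of the peaks tested in C and D, the ISRE letters occurred in 22.8%, GAS in 41.9% and κB in 20.2%, so a match in a window of this length is common. The 4 ISRE matches are printed because they let the lead peak be set beside members with the same letters and another response. Those other members are 2709 to 3472 bp wide, so the share at 1742 bp is too low a background for them. Where their matches lie within the regions called in each library was not examined. Capitals mark the matched letters, no other searched motif overlaps them, and each line is written on the strand of the match.

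Interval_163061, lead peak, minus strand, chr3:135666287-135666336: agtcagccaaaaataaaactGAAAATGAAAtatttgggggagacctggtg

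Interval_163058, intron 6, plus strand, chr3:135637495-135637544: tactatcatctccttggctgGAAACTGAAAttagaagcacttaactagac

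Interval_163055, intron 13, plus strand, chr3:135607899-135607948: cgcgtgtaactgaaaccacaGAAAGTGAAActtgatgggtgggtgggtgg

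Interval_163050, beyond the 3′ end, plus strand, chr3:135581579-135581628: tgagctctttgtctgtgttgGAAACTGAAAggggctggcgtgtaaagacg

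The promoter peak held 2 κB matches and no ISRE or GAS match. The one nearer to the start lies in exon 1, on the minus strand, and is shown with 10 bases on each side because it is the κB match closest to the main start.

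Interval_163065, promoter peak, minus strand, chr3:135691497-135691526: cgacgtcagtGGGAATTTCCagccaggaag

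The lead peak was the only member whose accessibility was called different after co-culture in C and D. A peak was called where edgeR's quasi-likelihood test gave a p of at most 0.05, adjusted by Benjamini-Hochberg over all 55420 peaks tested, together with a log2 fold change of at least 0.58 in either direction. Accessibility of the lead peak rose 3.0-fold at TP2 (log2 fold change 1.58 ± 0.09 SE, 95% interval 1.41 to 1.76, edgeR adjusted p = 3.22e-24) and 2.62-fold at TP1 (1.39 ± 0.09, interval 1.21 to 1.56, adjusted p = 2.36e-21). Of the 10 members tested, 1 was called higher at TP2, beside 1.72% of all tested peaks, and 1 at TP1, beside 1.69%. None was called lower, beside 1.0% of all tested peaks at TP2 and 0.108% at TP1. At an unadjusted p under 0.05, edgeR gave 1 lower member at TP2 and 0 at TP1, and DESeq2 also called 0 lower. The map of the locus shows the lead peak apart from all other tested members in C and D. It also stands apart in A and B, but there the plotted contrast is the one that selected it.

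**Figure D1:**
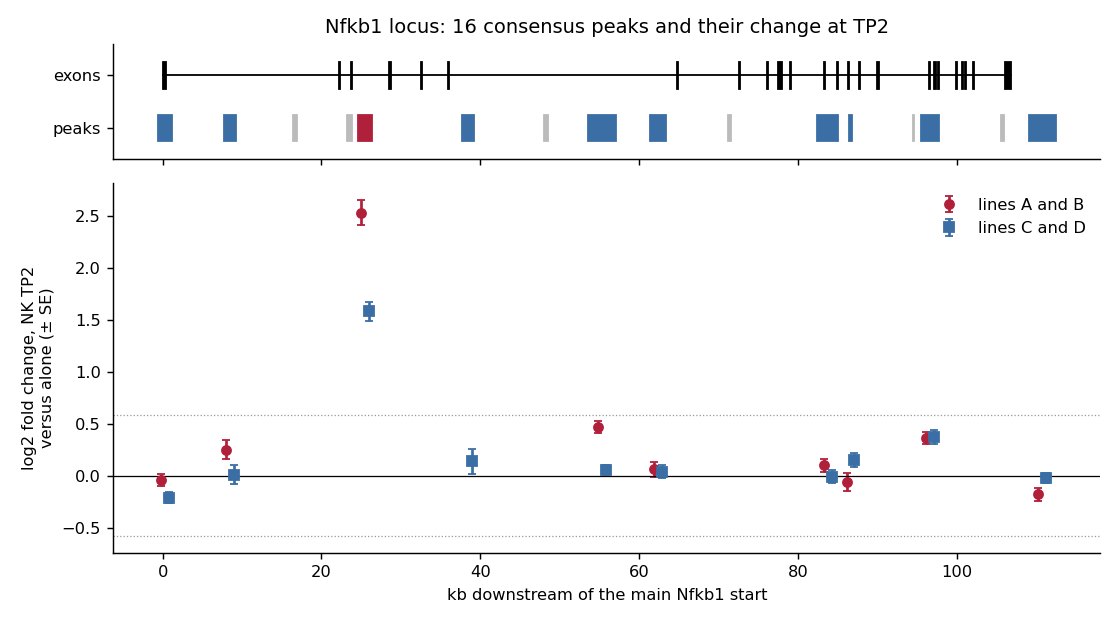
Upper panel, exons of the main Nfkb1 transcript and the 16 consensus peaks by distance in kb downstream of the main start (red, lead peak; blue, other peaks tested in at least 1 pair of lines; grey, not tested). Lower panel, log2 fold change ± SE of NK TP2 versus alone, points moved slightly sideways so that both pairs can be seen, with dotted lines at the fold threshold; the lead peak is at 2.53 in A and B and 1.58 in C and D, and every other member lies between the dotted lines.

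Levels of the lead peak are given as CPM, the counts of a peak scaled to the total of its library, with 1 TMM scaling over all samples. In C and D the 22 samples of cells alone ranged from 2.38 to 5.87 CPM (median 4.00), the 24 samples with NK cells at TP1 from 5.28 to 19.0 (median 10.1), and the 23 at TP2 from 5.95 to 30.8 (median 11.4). All 23 TP2 samples were thus above the highest sample of cells alone, and 22 of the 24 TP1 samples were. The raw counts behind these levels were 16 to 44 in cells alone, 35 to 193 at TP1 and 30 to 189 at TP2. Averaged over the 8 combinations, the level was 4.11 ± 0.876 CPM (SD, n = 8) alone, 10.5 ± 3.54 at TP1 and 12.4 ± 5.01 at TP2.

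In every one of the 8 combinations each sample with NK cells was above each sample of cells alone, at both times. The mean log2 difference over combinations was 1.51 at TP2 (range 0.90 to 2.09) and 1.30 at TP1 (0.41 to 1.73), and an exact two-sided sign-flip permutation test over the 8 combinations gave p = 0.00781 for each, the smallest p that 8 combinations allow. The combinations are not independent units, since C and D share a parental line and experiments 9.5, 9.6 and 9.7 held both lines. A sign-flip p may therefore be too small, here and below. The SD of the log2 difference over the 8 combinations was 0.47 at TP2 and 0.49 at TP1. The edgeR standard errors and intervals above take samples as units, not combinations, and are narrower than this spread. The size of the response varied between experiments with the same line. In line C the level at TP2 was 4.2-fold that of cells alone in experiment 9.5, 2.99-fold in 9.6, 2.32-fold in 9.7 and 1.89-fold in 9.5.1. Line D gave 4.42-fold in 9.5, 3.65-fold in 9.6, 2.65-fold in 9.7 and 2.02-fold in 9.6.1. The same 2 experiments, 9.5.1 and 9.6.1, also gave the smallest folds at TP1, 1.65 in C and 1.34 in D, beside 2.36 to 3.35 in the other 6 combinations. These folds were ordered after they had been seen and were not tested against each other. The deposited library names of 9.5.1 and 9.6.1 carry an added tag that no other experiment has. What the tag stands for is not stated.

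No difference between the responses of lines C and D was called at this locus. The D minus C difference in the log2 fold change of the lead peak was 0.19 ± 0.19 at TP2 (95% interval -0.18 to 0.56, edgeR adjusted p = 1) and 0.01 ± 0.20 at TP1 (interval -0.38 to 0.40, adjusted p = 1). Of the 10 members, 0 were called for this difference at either time by edgeR, and 0 had an unadjusted p under 0.05, beside 0.0271% of all peaks called at TP2 and 0.00% at TP1. DESeq2 was not run for the difference between lines. In cells alone at TP1, the mean level of the lead peak was 3.32 to 3.70 CPM in the 4 experiments with line C and 3.87 to 5.70 in those with line D, so the means of C and D did not overlap, a description made without a test.

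Between TP1 and TP2 the lead peak was not called in C and D. The log2 fold change of TP2 over TP1 was 0.20 ± 0.08 (95% interval 0.04 to 0.35, edgeR adjusted p = 0.0486), which is under the fold threshold and was not called. By combination, the TP2 mean exceeded that of TP1 in 5 of 8 (p = 0.0938, exact two-sided test by sign flips). Of the 10 members tested, 0 were called between the time points by edgeR or by DESeq2, beside 0.204% of all peaks called higher and 0.437% called lower. At an unadjusted p under 0.05 edgeR gave 4 members higher and 2 lower, among them the promoter peak, with -0.17 ± 0.05 (adjusted p = 0.00452). No share of all peaks at that level is given, in this or any other comparison. Counts at an unadjusted p thus have no background here.

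In experiment 9.7, sampled on later days than the others, the response of the lead peak in C and D was not called different. The log2 fold change at TP2 was lower there by 0.37 ± 0.20 than in the other experiments (9.7 minus the others, 95% interval -0.76 to 0.02, edgeR adjusted p = 0.129), and the difference at TP1 was 0.04 ± 0.20 (adjusted p = 0.959). Of the 10 members, 2 were called for this difference at TP2, beside 23.1% of all peaks, so the share of members lies near that of peaks in general. At TP1 edgeR called 0 members, 2 had an unadjusted p under 0.05, and 0.678% of all peaks were called.

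In A and B, the lines on which the locus was chosen, the level of the lead peak was lower alone and higher with NK cells than in C and D, a difference between the pairs that was not tested. The 18 samples of cells alone ranged from 1.19 to 4.83 CPM (median 2.57), the 18 with NK cells at TP1 from 10.9 to 20.5 (median 15.3) and the 18 at TP2 from 8.56 to 25 (median 13.8). No sample with NK cells came down to the range of cells alone, and the raw counts were 6 to 31 alone, 74 to 164 at TP1 and 61 to 282 at TP2. The means over the 6 combinations were 2.72 ± 0.353 CPM (SD, n = 6) alone, 15.4 ± 2.57 at TP1 and 15.7 ± 3.74 at TP2. The fitted fold changes were 5.69-fold at TP1 (log2 2.51 ± 0.12 SE) and 5.79-fold at TP2 (2.53 ± 0.12), with 0.02 ± 0.09 between the time points. By combination the TP2 level was 4.58-fold (B, experiment 9.6) to 7.97-fold (A, experiment 9.5) that of cells alone, and both comparisons with cells alone share those libraries. The choice of the locus favours larger folds in A and B.

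**Figure D2:**
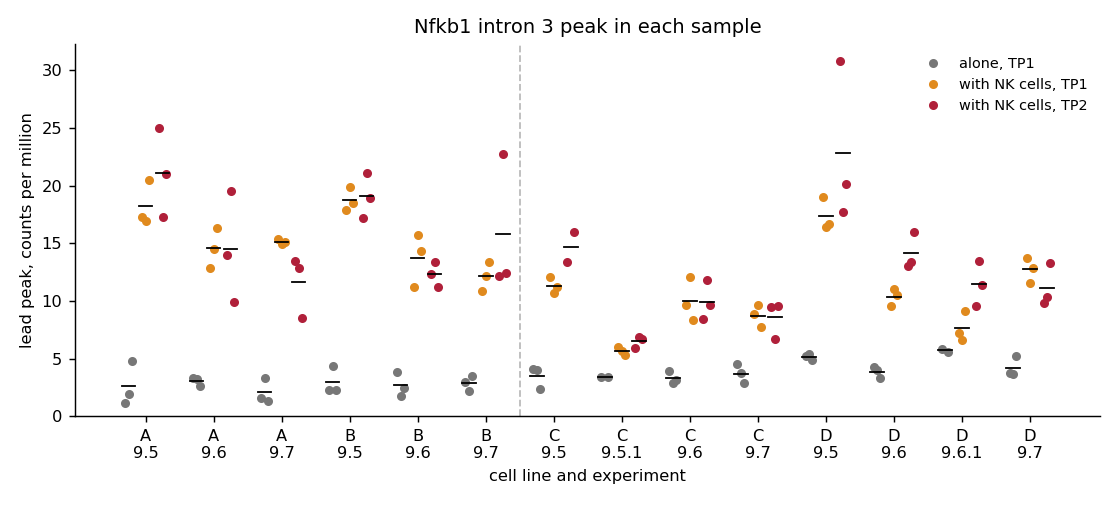
Level of the lead peak in CPM (y axis, from 0) in every sample, by cell line and experiment (x axis), in grey for cells alone at TP1, orange for NK cells at TP1 and red for NK cells at TP2, with black bars at the group means. Every coloured point lies above the grey points of its own combination, and the smallest separations are in C 9.5.1 and D 9.6.1.

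The broad peaks called in each library alone gave the same picture without the scaled counts. In A and B a broad peak overlapped the lead peak in 7 of 18 libraries of cells alone, 18 of 18 with NK cells at TP1 and 18 of 18 at TP2. In C and D it did so in 19 of 23 libraries alone, 24 of 24 at TP1 and 24 of 24 at TP2. The called regions were also wider with NK cells. Their median width in A and B was 406 bp alone, 959 bp at TP1 and 826 bp at TP2, and in C and D 429, 726.5 and 608 bp. The median −log10 q-value that the authors' caller gave was 2.05, 11.4 and 11.9 in A and B and 2.68, 8.49 and 10.5 in C and D. Libraries with NK cells had more counts in all at TP1 (medians 8203902 against 7082266 in A and B, and 8777344 against 7442967 in C and D), and also at TP2 in C and D (8180558), but not at TP2 in A and B (6675195). The part of depth in the calls was not tested.

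The ISRE match of the lead peak lies on a flank that was called mostly in co-cultured cells, as was the opposite flank. A broad peak ran over it in 1 of 18 libraries alone, 17 of 18 at TP1 and 16 of 18 at TP2 in A and B, and in 3 of 23, 13 of 24 and 13 of 24 in C and D. The shared core of the peak, on the other side of the centre, was already covered in most libraries of C and D alone. These counts describe where the caller drew its borders, and no test was made of them.

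**Figure D3:**
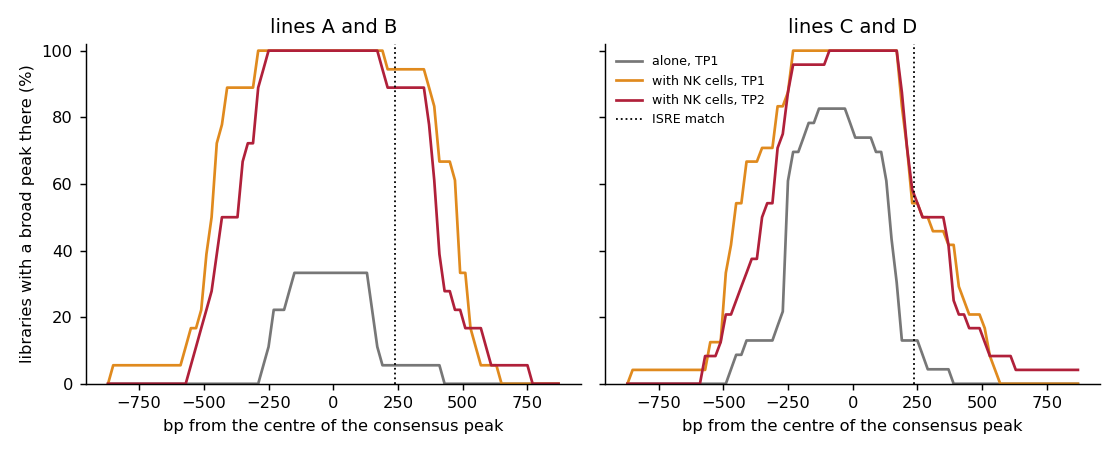
Share of libraries (%) whose own broad peak covers each position of the lead consensus peak, by distance in bp from its centre along the plus strand, for cells alone at TP1 (grey), NK cells at TP1 (orange) and NK cells at TP2 (red); the dotted line marks the ISRE match. The centre is covered in all libraries with NK cells, and the position of the ISRE match in few libraries of cells alone.

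The promoter peak, which covers the main start of Nfkb1, was open in all groups and was not called at either time. Its level in C and D was 29.9 ± 3.51 CPM alone (SD, n = 8 combinations), 28.9 ± 3.19 at TP1 and 25.7 ± 2.3 at TP2. Samples of the 3 arms overlapped, from 22.2 to 35.7 CPM alone and from 21.6 to 32.8 at TP2, although the TP2 mean was lower in 8 of 8 combinations. The log2 fold change at TP2 was -0.21 ± 0.05 (edgeR adjusted p = 0.000434), a difference under the fold threshold and so not called, and -0.04 ± 0.05 at TP1 (adjusted p = 0.629). The values in A and B were -0.04 ± 0.06 at TP2 and 0.09 ± 0.06 at TP1, on levels of 29.5 ± 5.31 CPM alone (SD, n = 6), 31.8 ± 6.37 and 28.6 ± 4.68. Levels of different peaks were compared per kb of peak. The lead peak of C and D went from 2.36 CPM per kb alone to 7.13 at TP2, against 16.9 and 14.5 for the promoter peak. In A and B the lead peak went from 1.56 to 9.03 CPM per kb, against 16.7 and 16.1 for the promoter peak. Per kb of consensus peak the lead peak thus remained below the promoter peak at TP2. Consensus widths include flanks that many libraries did not call, and the median called width at TP2 in C and D was 608 bp against 1159 bp. By the caller's median fold enrichment over local background the order at TP2 was the other way. It was 5.66 at the lead peak and 5.04 at the promoter peak in C and D, and 5.6 and 5.12 in A and B.

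The tested members on either side of the lead peak were not called. Interval_163064, in intron 1, 8.50 kb downstream of the main start, had a level in C and D of 5.63 ± 0.926 CPM alone, 5.46 ± 0.548 at TP1 and 5.48 ± 0.593 at TP2 (SD, n = 8), with log2 fold changes of -0.01 ± 0.09 at TP1 and 0.01 ± 0.09 at TP2 (edgeR adjusted p = 0.942 and 0.956). Its values in A and B were 0.28 ± 0.09 and 0.25 ± 0.09. Interval_163060, on the other side in intron 6 and over Gm43430, was weak, at 2.62 ± 0.583, 2.21 ± 0.263 and 2.94 ± 1.08 CPM in C and D, and it was not tested in A and B because too few libraries had a broad peak there. Its log2 fold changes in C and D were -0.23 ± 0.12 at TP1 and 0.14 ± 0.12 at TP2 (edgeR adjusted p = 0.212 and 0.395).

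One untested member spans the start of the shorter protein-coding transcript. Interval_163062 (chr3:135667749-135668351, 603 bp) covers exon 3 of the main transcript, and its centre is 251 bp from that start, on the side away from the lead peak. It had a broad peak in 1 of 125 libraries and 0 to 17 counts in a sample, too few for the tests. Its level was 0.542 ± 0.194, 0.904 ± 0.143 and 1.05 ± 0.515 CPM in A and B, for cells alone, TP1 and TP2, and 0.754 ± 0.315, 0.836 ± 0.223 and 1.02 ± 0.443 CPM in C and D. The TP2 mean was higher than alone in 6 of 6 combinations of A and B and in 5 of 8 of C and D. It is named here because of its place next to the alternative start, after its values had been seen.

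Among the remaining members, Interval_163052 had the largest difference at TP2 in C and D after the lead peak. It spans exons 18 to 20 and its centre lies 439 bp from the start of an internal transcript with no coding sequence, and it holds 2 GAS matches. Its level in C and D was 10.2 ± 0.963 CPM alone, 11.6 ± 2.2 at TP1 and 13.1 ± 2.58 at TP2 (SD, n = 8), and the ranges of samples overlapped (7.12 to 12.5 alone, 8.08 to 20.3 at TP2). The log2 fold changes were 0.37 ± 0.07 at TP2 (edgeR adjusted p = 6.46e-06) and 0.20 ± 0.06 at TP1 (adjusted p = 0.0242), both under the fold threshold and not called. The TP2 mean was higher than alone in 8 of 8 combinations of C and D, and in 6 of 6 of A and B, where the log2 fold change was 0.36 ± 0.06. This peak was picked out after its values had been seen.

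Interval_163058, in intron 6, carries an ISRE match like the lead peak, and it was not called in C and D. In those lines its log2 fold changes were 0.05 ± 0.05 at TP2 (95% interval -0.05 to 0.15, edgeR adjusted p = 0.48) and 0.12 ± 0.05 at TP1 (adjusted p = 0.0883). Lines A and B had 0.47 ± 0.06 and 0.41 ± 0.06, with the TP2 mean higher in 6 of 6 combinations, and 18.4 ± 2.80 CPM alone against 25.4 ± 3.2 at TP2 (SD, n = 6). Interval_163058 and the other 2 members with an ISRE match were picked for these letters. Those 2 members, Interval_163055 and Interval_163050, had log2 fold changes at TP2 of -0.01 ± 0.06 and -0.02 ± 0.05 in C and D and of 0.10 ± 0.06 and -0.18 ± 0.06 in A and B. Of the 4 members with these letters, 1 was called higher at TP2 in C and D, the lead peak, beside 1.72% of all tested peaks. The share called among all tested peaks with an ISRE match was not computed, and the part of the element was not tested.

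By adjusted p alone, 3 of the 10 members passed at TP2 in C and D (the lead peak, Interval_163052 and, lower, the promoter peak), beside 34.4% of all tested peaks. At TP1 there were 3 as well (the lead peak, Interval_163052 and Interval_163055), beside 14.4%. The median log2 fold change of the 10 members was 0.05 at TP2 and 0.04 at TP1, against 0.00 and -0.01 over all tested peaks. Without the lead peak the members ranged from -0.21 to 0.37 at TP2 and from -0.23 to 0.20 at TP1. Among the 9 members tested in A and B the range without the lead peak was -0.18 to 0.47 at TP2 and -0.13 to 0.41 at TP1. The median of the 9 members was 0.10 at TP2 and 0.18 at TP1, against -0.02 over all peaks at both times.

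**Figure D4:**
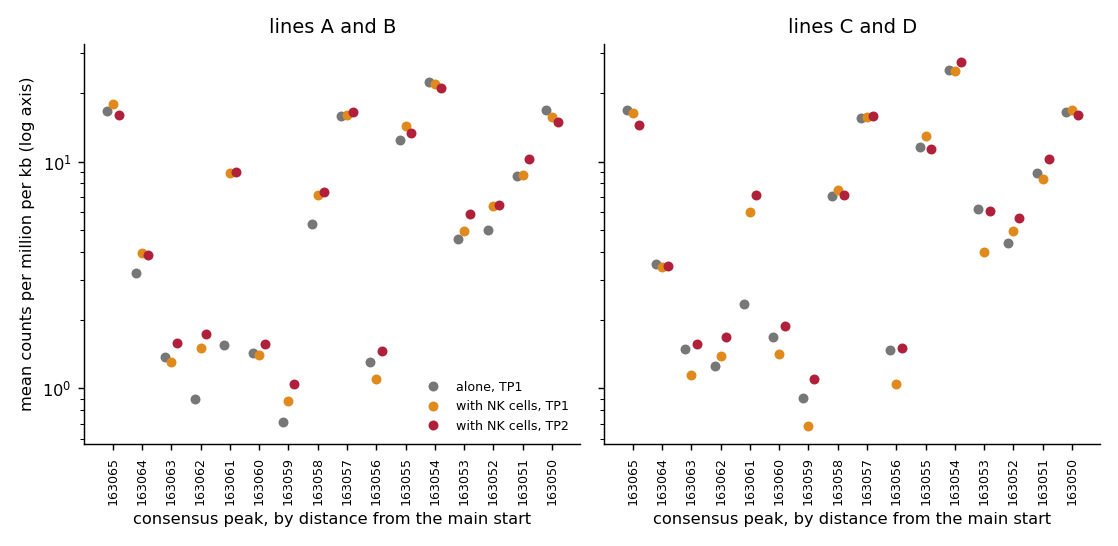
Mean accessibility of each of the 16 members in CPM per kb of peak (log axis), ordered by distance from the main start with the promoter peak at the left, for A and B (left) and C and D (right), in grey for cells alone, orange for NK TP1 and red for NK TP2. The lead peak, Interval_163061, has the widest gap between grey and coloured points among the tested members; points for peaks of few counts, such as Interval_163062 and Interval_163059, rest on under 20 counts a sample.

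The 6 members tested in neither pair of lines had a broad peak in at most 3 of 125 libraries each. Their mean levels lay between 0.385 CPM (Interval_163056, C and D at TP1) and 3.45 CPM (Interval_163051, A and B at TP2). The members at the ends of the window were strong, with 57.1 CPM in A and B alone at Interval_163050 and 29.5 CPM at the promoter peak. The first consensus peaks beyond the window, Interval_163049 and Interval_163066, were weak and untested, with 2.76 and 0.504 CPM in A and B alone and 2.82 and 0.648 CPM at TP2.

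Over the 42 groups, with each value centred within its combination of cell line and experiment, 3 members varied with the lead peak with a Pearson r above 0.5. These were Interval_163052 (r = 0.80), Interval_163058 (r = 0.72) and the sparse Interval_163062 (r = 0.61), while the promoter peak had r = -0.15. The groups share libraries, depth and the contrast that chose the locus, so these values only describe.

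Outside the locus, the 5 peaks of different genes whose pattern over the 42 groups was most like that of the lead peak were found among 45552 peaks tested in both pairs. They lay nearest to Rbms1, which encodes an RNA-binding protein (chr2:60800475-60802517, r = 0.977), Gbp6, of the interferon-inducible guanylate-binding protein family (chr5:105305200-105309194, r = 0.976), Fggy, a carbohydrate kinase (chr4:95684122-95688451, r = 0.976), Akap2, an anchoring protein of protein kinase A (chr4:57730479-57732162, r = 0.973), and Mrap2, an accessory protein of melanocortin receptors (chr9:87162383-87164810, r = 0.971). None is a promoter peak. Their centres lay 10774 bp (Akap2) to 49400 bp (Fggy) from the nearest start site of any gene. Log2 fold changes at TP2 were 2.47 in A and B and 2.00 in C and D at Rbms1, 2.02 and 1.27 at Gbp6, 1.34 and 0.76 at Fggy, 1.5 and 1.23 at Akap2, and 2.32 and 1.38 at Mrap2. All 5 values were larger in A and B than in C and D, as at the lead peak, but likeness to the lead peak was what chose these peaks.

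**Figure D5:**
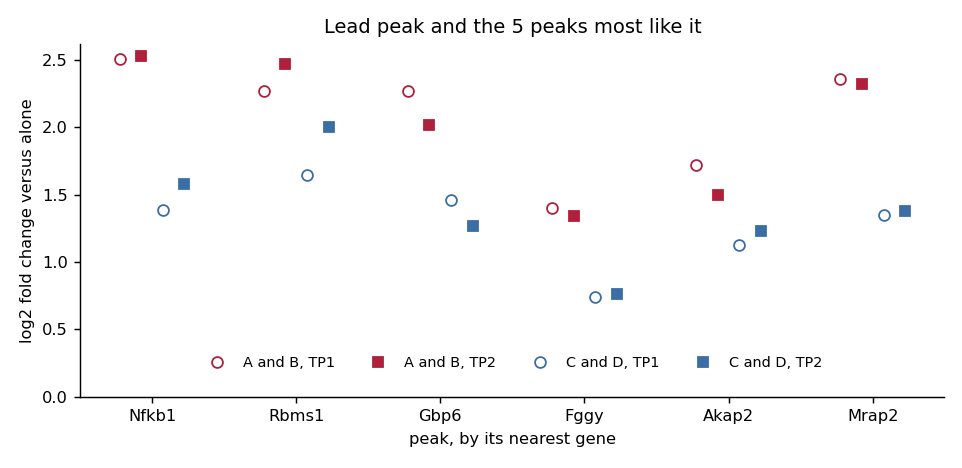
Log2 fold change versus cells alone (y axis, from 0) of the lead peak of Nfkb1 and of the 5 peaks whose pattern over 42 groups was most like it, named by nearest gene; red, A and B; blue, C and D; open circles, TP1; filled squares, TP2. At each of the 6 peaks both red points lie above both blue ones.

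No promoter of the other genes of the NF-κB pathway was called in C and D, a count near the background. The list held the subunits, inhibitors, kinases, adaptors and ubiquitin regulators, with 1 peak a gene within 3 kb of a start site, and 37 of 37 genes were measured. At TP2, 0 were called higher and 0 lower by edgeR, with 3 higher and 12 lower at an unadjusted p under 0.05, and DESeq2 called 0. Over all tested peaks 1.72% were called higher and 1.0% lower at TP2, so 0 of 37 lies near the background. By adjusted p alone, 3 of the 37 were higher and 12 lower at TP2, beside 34.4% of all tested peaks in both directions together. Shares by direction were not computed. At TP1, 0 were called by either tool, with 5 higher and 3 lower at an unadjusted p under 0.05. The median log2 fold change was -0.06 at TP2 and 0.00 at TP1, with a range of -0.37 (Tab3, an adaptor of the kinase TAK1) to 0.14 (Rbck1, a subunit of the linear ubiquitin ligase) at TP2.

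Among the 4 partner subunits of Nfkb1, the log2 fold changes at TP2 were -0.01 ± 0.05 at Rela, the main transactivating subunit, -0.13 ± 0.05 at Rel, which is abundant in B cells, -0.19 ± 0.05 at Relb and 0.07 ± 0.05 at Nfkb2, the subunits of the non-canonical pathway (edgeR adjusted p = 0.935, 0.0397, 0.00184 and 0.324). The inhibitors ranged from -0.25 (Nfkbiz, ± 0.05, edgeR adjusted p = 0.000117) to 0.13 (Nfkbie), and Nfkbia, which encodes the classical inhibitor IκBα, had -0.05 ± 0.04 (adjusted p = 0.332). The 8 kinases ranged from -0.30 (Tbk1) to 0.12 (Ikbke), and the feedback inhibitor Tnfaip3 had -0.15 ± 0.05 (edgeR adjusted p = 0.00581). In A and B the medians were -0.18 for the subunits, -0.04 for the inhibitors, -0.10 for the kinases and -0.09 for the adaptors and ubiquitin regulators. No promoter of the list thus came near the 1.58 of the lead peak, which is intronic and was selected for its gain in A and B. The promoter peak of Nfkb1 itself had -0.21 ± 0.05 at TP2 in C and D, within the range of the listed promoters (-0.37 to 0.14). Peaks of the listed genes away from their promoters were not examined.

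Neighbouring genes on chromosome 3 were described in the same way. Of 7 genes, 6 had a tested promoter peak (Manba, Slc39a8, Ube2d3, Cisd2, Slc9b2 and Bdh2), and Slc9b1 had none. At TP2 in C and D edgeR called 0, the log2 fold changes ranged from -0.28 (Slc9b2) to -0.10 (Manba), and 5 were lower at an unadjusted p under 0.05. With 1.72% of all tested peaks called higher and 1.0% lower, 0 of 6 lies near the background, though 6 genes are too few for that to tell much. The same 5, all lower, passed by adjusted p alone, beside 34.4% of all tested peaks in both directions together. The share of all peaks lower by adjusted p alone was not computed. At TP1 the range was -0.23 to 0.01, with 0 called and 1 lower at an unadjusted p under 0.05.

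Markers of other cell types that the sorted cells could hold were summed over 1 peak a gene near a start site. Of 9 NK-cell markers, 7 had a peak, with none at the NK receptor genes Ncr1 and Klrk1, and their summed level was 46.5 CPM alone (40.0 to 52.3), 47.9 at TP1 (38.8 to 59.0) and 46.4 at TP2 (35.9 to 63.6). T-cell markers (4 of 5 with a peak) had medians of 34.9, 33.3 and 35.3 CPM and myeloid markers (5 of 5) 18.1, 19.6 and 19.9. The ranges of the 3 arms overlapped for each of these lists. The level of the lead peak in those cell types was not measured, and their part in its values was not tested.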

How the data were processed

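The ATAC-seq data of the B-ALL lines were analysed from the files the authors deposited. Per the authors' methods and processing notes, reads were aligned to GRCm38 with STAR (for ATAC-seq no version given in the sources used here), duplicates were marked with Picard 2.27.4 and peaks were called per library with MACS2 2.2.7.1 in broad mode. The methods name a human blacklist beside the mouse build. The authors merged the broad peaks into consensus peaks and deposited unnormalised read counts per consensus peak and library. The deposited broad peaks carry a fold enrichment over local background and a −log10 q-value, both from the authors' caller.

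Counts were tested with edgeR 4.0.16 (quasi-likelihood, TMM scaling), with each combination of cell line and experiment as an additive term and 3 arms, separately in A and B and in C and D. Peaks entered if a broad peak overlapped them in every replicate of at least 1 group and if they passed edgeR's count filter. The standard error is the log2 fold change divided by the square root of F. Thresholds follow the study. Values in CPM use 1 TMM scaling over 123 samples, and their mean and SD are taken over combinations. The study used DESeq2, and DESeq2 1.42.0 was an alternative here, besides other scalings and filters, a replicate block, each line or experiment alone, all libraries kept as samples of their own, and leaving out each replicate number. The sign-flip test over combinations was added after seeing the data. The statistics were tested on simulated data.

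The members, the gene lists (NF-κB pathway, neighbouring genes, markers of other cell types) and the motifs were chosen with earlier results of these data known. By rule the text names the lead peak, the member nearest the main start, the tested members on each side of the lead peak, members called in a comparison in C and D, the listed pathway genes and neighbours, and the 5 peaks outside the locus, 1 per nearest gene, most correlated with the lead peak. Other members and the single pathway genes given with values were picked after these were seen. Sequences were read from the RefSeq GRCm38 genome, and gene models were GENCODE vM21. Depth sets the precision: at the lead peak single samples held 6 to 282 counts. The check of the B-cell label by its marker list is not reported here.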

Additional observations from a re-analysis of the deposited data

Results flagged for a closer look

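In total 2 members differed in their TP2 response between experiment 9.7 and the other experiments in lines C and D, by edgeR's test of the difference itself. For Interval_163057, in intron 6 of Nfkb1, the log2 fold change at TP2 was 0.59 higher in experiment 9.7 than in the others (± 0.11 SE, edgeR adjusted p = 2e-05). By combination it was 0.25 in C and 0.65 in D in experiment 9.7, and -0.28 to 0.04 in the other 6 combinations, so the 2 sets of combinations did not overlap. For Interval_163060, in intron 6 and over Gm43430, the difference was -0.89 (± 0.26, edgeR adjusted p = 0.00404), with -0.55 in C and -0.48 in D in experiment 9.7 and -0.12 to 1.01 in the others. The share of members called, 2 of 10, lies near the 23.1% of all tested peaks. Experiment 9.7 was sampled on later days than the others, so day and experiment cannot be told apart.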

How the results depend on the processing

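Of 161 values recomputed for 16 results, 156 were judged the same as the main value. For single fold changes in C and D this meant the same direction and the same side of the thresholds. For counts of called peaks it meant an equal count or one within a set ratio. In A and B, where no test was run, it meant the same direction and a shift smaller than the SD over combinations. The lead peak stayed called in C and D under every alternative run, with log2 fold changes of 1.36 to 1.84 at TP2 and 1.25 to 1.52 at TP1 (1.47 to 1.67 and 1.32 to 1.45 with single replicates left out). In A and B they were 2.26 to 2.86 and 2.32 to 2.75. The value of TP2 against TP1 was 0.16 to 0.22 with single replicates left out, and in experiment 9.7 alone it turned to -0.06 ± 0.12 (edgeR adjusted p = 0.693, with 0.033 to 0.693 over all alternatives). With edgeR's count filter only, 6 of 11 members in place of 2 of 10 were called for experiment 9.7 against the others at TP2. The calls over all peaks rose as well, to 43135 of 113459 tested in place of 12813 of 55420. With that filter Interval_163060 gave -0.52 (edgeR adjusted p = 0.0813). Interval_163057 gave 0.45 (edgeR adjusted p = 0.00025) after loess scaling and 0.53 (edgeR adjusted p = 0.00481) without replicate 1, both under the fold threshold. The causes were not tested. Over all peaks, 952 higher and 556 lower calls at TP2 became 1436 and 1094 with that filter only and 1884 and 1641 with no filter, where more peaks were tested. At TP1, 938 and 60 became 1768 and 350, and 3098 and 417. Between the time points 113 and 242 became 1515 and 773, and 1693 and 2533. For experiment 9.7 at TP2, 12813 calls became 43135 with that filter only. Replicate numbers did not pair the samples: deviations of same-numbered samples had a median r of 0.0467 (-0.400 to 0.429, 17 of 66 above 0.1) and those of different numbers -0.0195. With a replicate block the lead peak had 1.57 at TP2, 1.39 at TP1 and 0.18 between them (edgeR adjusted p = 0.0878), 1558 peaks were called at TP2, and no call among the members was lost. Depth limits the 6 untested members and the lead peak in cells alone, which held 6 to 44 counts a sample.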
